A study of Bos indicus x Bos taurus with 45 samples.

Results

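The liver libraries of 8 bovine fetuses conceived by assisted reproduction were set against those of 5 control fetuses, to ask which microRNAs (miRNAs) differed after assisted reproduction whether or not the fetus was overgrown. All columns of the liver count table entered the comparison, 13 of the 45 libraries of the study, and all 563 listed miRNAs were tested. The assisted reproduction fetuses were 4 labelled ART, of healthy status, and 4 labelled LOS, with large offspring syndrome, in which bovine fetuses grow too large. The 5 control fetuses were healthy and came from artificial insemination. Every fetus was Bos indicus crossed with Bos taurus, taken at about day 105 of gestation. The sex of the fetuses that gave liver was not stated, nor were the dams, the sires or the culture steps, so any of these that differed between the groups cannot be told apart from the conception method. Sex was labelled for tongue, which had no ART libraries, and was not carried over to the liver fetuses of the same number.

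The study sequenced small RNAs of liver, kidney, skeletal muscle and tongue, and only liver had the ART subgroup. A miRNA is a short RNA that pairs with messenger RNAs and lowers their translation or stability. It is cut from a hairpin precursor whose arms, 5p and 3p, can each give a mature miRNA, usually with one arm far more abundant. Fetal liver is a site of blood formation as well as of hepatocyte growth, so its RNA comes from hepatocytes, blood precursors, vessels and connective tissue. In such whole tissue, fewer cells of a type and less RNA per cell cannot be told apart. Levels are given as CPM, that is, counts divided by the total of listed reads in the library, scaled by the TMM factors of edgeR. Differences are on the log2 scale and positive where the assisted reproduction fetuses were higher, and the pooled difference is the mean of the ART and LOS differences from control.

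The ART libraries held 3936697 to 4796102 listed reads, the LOS libraries 3733598 to 4976770 and the Control libraries 3379816 to 4134460. Assisted reproduction libraries held more reads than Control libraries (exact two-sided permutation test, p = 0.0256), and the part of depth in the results was not tested. miR-122, the defining miRNA of hepatocytes, averaged 19121 ± 649 CPM in ART, 16275 ± 1758 CPM in LOS and 18681 ± 790.2 CPM in Control (SD, n = 4, 4 and 5). On the first principal component of log2 CPM, with 24.4% of the variance, LOS 1 stood apart at 8.47, the other LOS libraries lay between 1.07 and 3.20, ART lay between -6.36 and 0.18, and Control lay between -1.83 and 1.47. The second component, with 15.3%, spread the LOS libraries from -6.09 to 0.34 and the Control libraries from 0.09 to 4.64. On the first component 3 of the 4 ART libraries lay below every control and 2 of the 4 LOS libraries above every control, while ART 4, LOS 2 and LOS 4 lay within the control range.

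**Figure D1:**
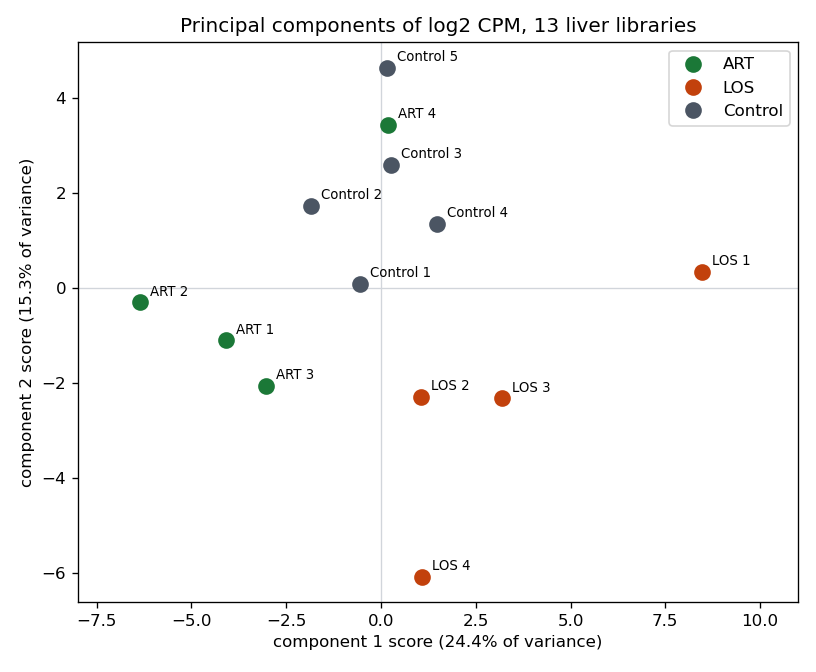
Scores of the 13 liver libraries on the first (x axis) and second (y axis) principal component of log2 CPM, with 24.4% and 15.3% of the variance; each point is a fetus, coloured by group. ART fetuses reach -6.36 and LOS fetuses 8.47 on the first component, with the 5 Control fetuses between -1.83 and 1.47.

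No miRNA passed when the 8 assisted reproduction livers were compared with the 5 controls in edgeR's quasi-likelihood test. 0 of 563 miRNAs (0%) had a Benjamini-Hochberg adjusted p under 0.05, and the lowest adjusted p was 0.180. At an unadjusted p under 0.05 there were 50 miRNAs (8.88%), of which 28 were higher (4.97%) and 22 lower (3.91%) in the assisted reproduction fetuses. DESeq2 on the same counts called 6 (1.07%), of which let-7f, let-7g, miR-98 and miR-temp43-3p were higher and miR-485-3p and miR-2408 lower, and limma-voom called 0. Without LOS 2 edgeR called 5 let-7 family members, and without Control 4 it called miR-2408. The median miRNA had a 95% interval reaching 0.23 to either side of its estimate, and 416 of 563 intervals (73.9%) lay within 0.5 of zero in both directions, that is, within 1.41-fold. For the 255 miRNAs of at least 100 CPM that reach was 0.14, and for the 78 under 10 CPM it was 0.39.

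A miRNA was taken to differ alike in both subgroups where its differences from control had the same sign in ART and in LOS and the smaller was at least 0.5 times the larger. ART and LOS were measured against the same 5 controls, so a shared sign is in part built in, and 155 of all 563 miRNAs (27.5%) met the definition. Choosing miRNAs by a low pooled p also favours alike differences, since the pooled difference is the mean of the ART and LOS differences. A larger share of alike miRNAs among those so chosen is therefore no evidence by itself of shared effects. Of the 50 miRNAs at an unadjusted p under 0.05, 26 differed alike, 14 higher and 12 lower. Both subgroups were at an unadjusted p under 0.05 for 7 of them. The remaining 24 were larger in LOS for 19 and larger in ART for 5, and 6 of the 24 had opposite signs in the subgroups. Just inside the limit on the ratio were miR-2285ag-3p and miR-503-3p, both at 0.513, and just outside was miR-132 at 0.473. The 10 highest-ranked alike miRNAs in each direction are described in the next paragraphs, by role. Their adjusted p values ran from 0.180 to 0.536, so none is a call in edgeR.

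Among imprinted miRNAs, the lowest p of the whole comparison belonged to miR-485-3p. Its gene lies in the DLK1-DIO3 domain, whose miRNAs are expressed from the maternal chromosome. It stood at 334.8, 333, 378 and 327 CPM in the ART fetuses, 379.3, 361, 350.2 and 314 CPM in the LOS fetuses, and 412.03, 448, 459.9, 404 and 380.2 CPM in the Control fetuses. Every one of the 8 assisted reproduction livers lay below every control, although the highest LOS and the lowest Control value were close. The log2 difference was -0.28 ± 0.06 (SE, unadjusted p 0.000740, adjusted p 0.180), with -0.29 in ART and -0.26 in LOS. The difference between LOS and ART was 0.03, with a 95% interval from -0.14 to 0.20. DESeq2 gave miR-485-3p an adjusted p of 0.0170, and over the other alternatives the adjusted p reached 0.381.

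The other listed arm of the same precursor, miR-485, averaged 134.8 CPM in assisted reproduction livers and 135.8 CPM in controls, a log2 difference of -0.01 ± 0.06. miR-3957, listed in the same domain, lay the other way, at 172, 176, 173 and 161 CPM in ART, 168, 181, 169.5 and 187 CPM in LOS, and 157, 159, 153, 161 and 148.4 CPM in Control. Its difference was 0.16 ± 0.05 (adjusted p 0.249), with 7 of 8 libraries above every control. The list used for the domain did not hold miR-3956 (0.16) or miR-1197 (0.14), whose loci were not checked. Of its 83 members, 44 were higher and 39 lower. Their median was 0.01 in the pooled comparison, 0.02 in ART and 0.01 in LOS, beside 314 higher, 249 lower and a median of 0.01 over all 563 miRNAs. 3 members were higher and 3 lower at an unadjusted p under 0.05, beside 4.97% higher and 3.91% lower over all miRNAs. In edgeR 0 were called, and DESeq2 called miR-485-3p alone of them. The most abundant of them, miR-411a, averaged 88988 ± 5602 CPM in ART, 84839 ± 3270 CPM in LOS and 90092 ± 2444 CPM in Control.

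miR-301b, of the miR-130 and miR-301 seed family, was the other miRNA whose groups did not overlap. It stood at 180.1, 181, 185 and 173 CPM in ART, 182, 165, 171 and 180.3 CPM in LOS, and 202, 187, 196, 199.8 and 193 CPM in Control. The gap was narrow, since the highest ART fetus was at 185 and the lowest Control fetus at 187 CPM. The difference was -0.14 ± 0.05 (adjusted p 0.260), -0.12 in ART and -0.16 in LOS. miR-485-3p and miR-301b were the 2 of 563 miRNAs (0.355%) with all 8 assisted reproduction livers on one side of all 5 controls. The count was 9 without Control 5, and 8 without Control 1 or without ART 1. Leaving out a fetus loosens the condition, so a rise of this count is largely built in.

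The miR-17 families, which promote cell cycling in many tissues, had 21 of 21 members lower, beside 249 of all 563 miRNAs. The 21 include both arms of some precursors, so they are not independent. Their pooled differences ran from -0.61 to -0.01, with a pooled median of -0.09, -0.05 in ART and -0.11 in LOS. 7 of the 21 differed alike, a share near the 27.5% of all miRNAs. 4 were lower at an unadjusted p under 0.05 (miR-19b, miR-25, miR-92a and miR-92a-1-5p), beside 3.91% of all miRNAs, and 0 were called in edgeR or DESeq2. miR-19b led them, at 1380.0, 1311, 1414 and 1329 CPM in ART, 1350.4, 1255, 1405 and 1187 CPM in LOS, and 1403, 1546, 1459, 1561 and 1459.7 CPM in Control. Of these 8 livers, 6 were below every control, and ART 3 and LOS 3 were just above the lowest control. The difference was -0.16 ± 0.05 (adjusted p 0.215), -0.13 in ART and -0.19 in LOS. miR-92a-1-5p, the minor arm of a miR-92a precursor, differed by -0.61 ± 0.21 with a level of 5.58 ± 1.52 CPM in assisted reproduction livers against 8.45 ± 1.78 CPM in controls.

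For miR-92a itself, which is among the 5 most abundant miRNAs of these livers, the pooled difference was -0.15 ± 0.05, with -0.09 in ART and -0.22 in LOS. Its LOS minus ART difference was -0.13, with a 95% interval from -0.27 to 0.0028 (adjusted p 0.331). miR-25 was at -0.03 in ART and -0.14 in LOS, and its LOS minus ART difference was -0.11 (95% interval -0.20 to -0.01, adjusted p 0.254). Summed over the list, the level ranged from 67356 to 72914 CPM in ART, from 57849 to 71173 CPM in LOS and from 70108 to 77018 CPM in Control. Markers of white blood cells were also lower in 7 of 7 members, with medians of -0.09 pooled, -0.11 in ART and -0.12 in LOS. Their summed level was 5384 to 5702 CPM in ART, 4964 to 5411 CPM in LOS and 5404 to 5937 CPM in Control, and their part in the miR-17 values was not tested. Markers of red cell precursors had 3 of 5 members higher and medians of 0.00 pooled, -0.01 in ART and 0.02 in LOS.

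The miR-424 cluster, which also holds miR-503, miR-542 and miR-450 and is X-linked in mammals, was higher in 8 of 8 members. Over all 563 miRNAs 314 were higher, and the 8 include both arms of some precursors, so they are not independent. The medians of the cluster were 0.23 pooled, 0.23 in ART and 0.22 in LOS. Its summed level overlapped between groups, at 6185 to 9295 CPM in ART, 6493 to 7840 CPM in LOS and 5601 to 7356 CPM in Control. 5 members differed alike, beside 27.5% of all miRNAs, 2 were higher at an unadjusted p under 0.05, beside 4.97%, and 0 were called in edgeR or DESeq2. miR-503-3p stood at 17.8, 15.3, 14.1 and 14.1 CPM in ART, 17.5, 15.4, 20.4 and 18.1 CPM in LOS, and 12.1, 15.1, 12.6, 12.7 and 12.8 CPM in Control. All assisted reproduction livers were above 4 of the 5 controls, and 6 were above all 5. The difference was 0.34 ± 0.10 (adjusted p 0.215), 0.23 in ART and 0.45 in LOS, with a LOS minus ART interval from -0.04 to 0.48.

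miR-424-3p of this cluster averaged 79.5 ± 8.99 CPM in assisted reproduction livers and 68.9 ± 6.11 CPM in controls, a difference of 0.21 ± 0.09 (adjusted p 0.536), and 4 of 8 libraries were above every control. Of the other arms of these precursors, miR-424-5p was at 0.10 ± 0.07 and miR-503-5p at 0.26 ± 0.18, neither at an unadjusted p under 0.05. The most abundant members were miR-450b, at 0.27 in ART and 0.11 in LOS, and miR-450a, at 0.36 in ART and 0.13 in LOS. Neither met the definition of alike, with ratios of 0.415 for miR-450b and 0.369 for miR-450a. Their LOS minus ART intervals included zero, from -0.43 to 0.11 for miR-450b and from -0.60 to 0.14 for miR-450a. ART 1 had the highest miR-450b of all 13 fetuses, 6432 CPM.

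The largest of the 10 leading higher differences was that of miR-temp43-3p, an entry under a temporary name whose identity the files do not give. It stood at 41.0, 43.8, 39.3 and 54.1 CPM in ART, 25.7, 42.3, 62.2 and 18.1 CPM in LOS, and 14.8, 20.9, 15.98, 15.7 and 26.4 CPM in Control. The 4 ART fetuses were close together and above every control, whereas LOS 1 and LOS 4 lay within the control range. The difference was 1.11 ± 0.27 (adjusted p 0.180 in edgeR and 0.0124 in DESeq2), 1.24 in ART and 0.97 in LOS, a fold of 2.15 for the pooled estimate. Its LOS minus ART interval, -0.93 to 0.39, leaves room for a smaller value in LOS, and without LOS 3 the difference between the subgroups was -0.64. miR-temp15-5p differed by 0.62 ± 0.22 (adjusted p 0.377), with LOS 4 at 158 CPM and the other 7 between 58.2 and 106.2 CPM, against 41.6 to 82.3 CPM in Control.

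**Figure D2:**
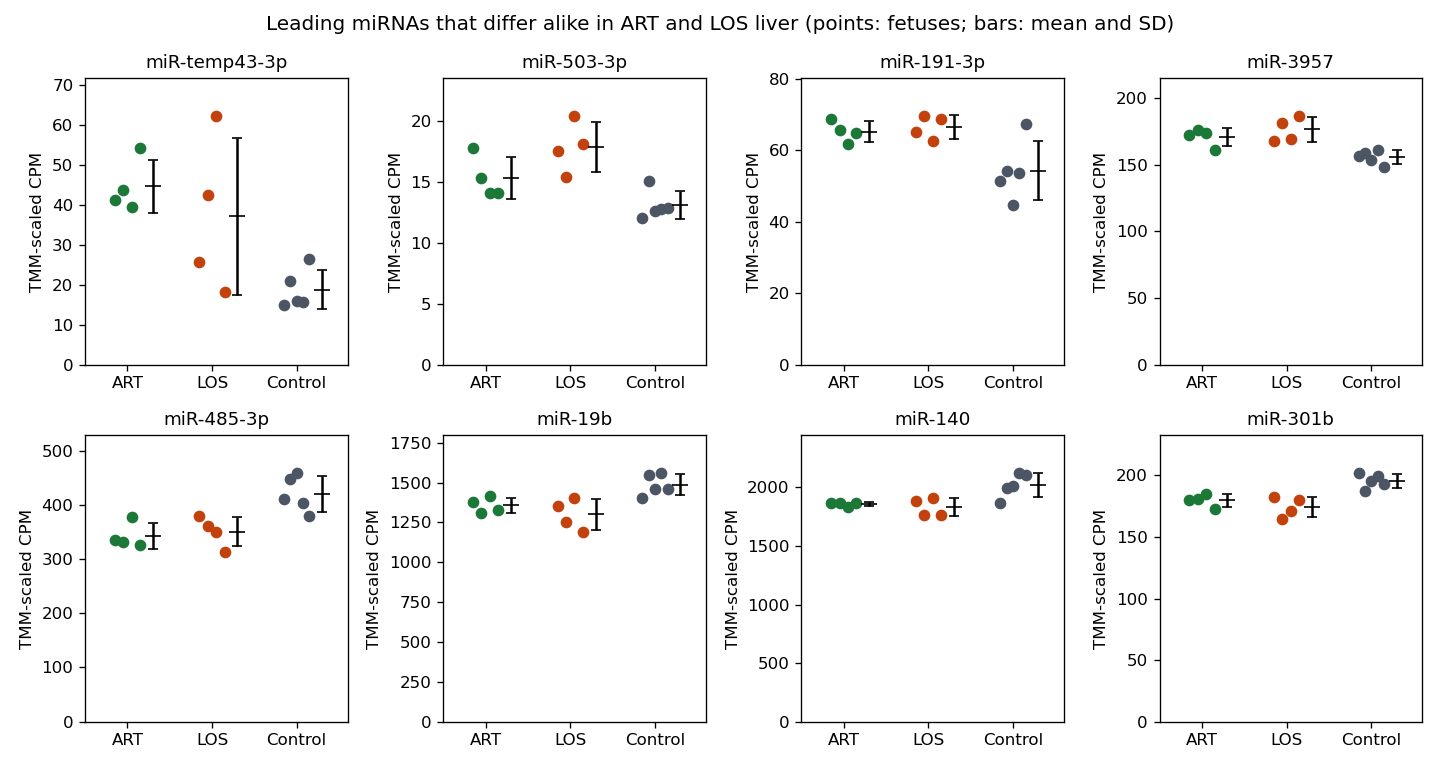
TMM-scaled CPM (y axes from 0) of the 4 highest-ranked higher and the 4 highest-ranked lower alike miRNAs in each liver; points are fetuses, and the bars give the group mean and SD. The 8 assisted reproduction fetuses of miR-485-3p and miR-301b lie below the 5 Control fetuses, while the LOS fetuses of miR-temp43-3p spread from 18.1 to 62.2 CPM.

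The other leading miRNAs were of moderate abundance and differed by less than 1.4-fold, except for 2 below 10 CPM. miR-191-3p stood at 68.7, 65.8, 61.7 and 64.8 CPM in ART, 65.1, 69.7, 62.7 and 68.8 CPM in LOS, and 51.6, 54.1, 44.8, 53.7 and 67.6 CPM in Control. Here 4 controls were below all 8 assisted reproduction livers, and Control 5 lay among them. The difference was 0.28 ± 0.09 (adjusted p 0.249), and the main arm, miR-191, differed by 0.02 ± 0.03 at 16219 CPM in assisted reproduction livers and 16011 CPM in controls. miR-140, best known as a cartilage miRNA, stood at 1864, 1871, 1829.8 and 1866 CPM in ART, 1882, 1768, 1910.3 and 1765 CPM in LOS, and 1868, 1994, 2013, 2126 and 2108 CPM in Control. Its difference was -0.13 ± 0.04 (adjusted p 0.215), and Control 1 alone lay within the range of the assisted reproduction fetuses.

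Further higher values were those of miR-3956 (0.16 ± 0.06, 7 of 8 libraries above every control), miR-345-5p (0.26 ± 0.11, 3 of 8) and miR-2285q of the ruminant miR-2284 and miR-2285 families (0.18 ± 0.07, 6 of 8). miR-2285ag-3p of the same families was at 0.75 ± 0.29, from 2.86 to 7.36 CPM in assisted reproduction livers and from 1.51 to 3.61 CPM in Control. The families as a whole had 23 of 41 members higher and a median of 0.01, as over all miRNAs. Further lower values were those of miR-197 (-0.22 ± 0.08, 4 of 8 below every control), miR-532-3p (-0.16 ± 0.06, 7 of 8) and miR-6517 (-0.23 ± 0.09, 4 of 8). miR-temp10-3p was at -0.59 ± 0.23, from 3.59 to 9.57 CPM in assisted reproduction livers and from 7.51 to 12.7 CPM in Control. The 63 entries with temporary names had 38 members higher and a pooled median of 0.04, and their medians lay on opposite sides of zero, 0.17 in ART and -0.11 in LOS.

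Among the 20 leading miRNAs, 10 had the other arm of their precursor listed, and 6 of these 10 were the less abundant arm. The partner differed less in 10 of 10 and had the same sign in 9 of 10, and 0 partners had an unadjusted p under 0.05. The leading miRNAs were chosen for their low p, which by itself favours a smaller value in the partner. miR-148a-5p, for example, was at -0.13 ± 0.06 with 478 ± 33.4 CPM in assisted reproduction livers and 523 ± 26.7 CPM in controls. Its main arm miR-148a, an abundant hepatocyte miRNA, was at -0.04 ± 0.06.

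The lists of cell type markers held 0 calls in edgeR or DESeq2. The hepatocyte list had 2 of 10 members higher and 8 lower, with medians of -0.06 pooled, 0.00 in ART and -0.14 in LOS. Biliary and other epithelium was higher in 6 of 7 members, with medians of 0.14 pooled, 0.16 in ART and 0.20 in LOS, and its only member at an unadjusted p under 0.05 was miR-200a-5p, the minor arm of miR-200a, at 0.27 ± 0.12. Its summed level overlapped between groups, at 671 to 963 CPM in ART, 756 to 893 CPM in LOS and 679.7 to 815 CPM in Control. Markers of smooth muscle and fibroblasts were higher in 9 of 9 in the pooled comparison, with medians of 0.21 pooled, 0.03 in ART and 0.25 in LOS. Examples are miR-143 at 0.11 ± 0.07 and miR-145 at 0.14 ± 0.06. In ART alone miR-199a-3p, miR-214 and miR-143-5p lay slightly below zero. The summed level overlapped between groups, at 67177 to 78903 CPM in ART, 74898 to 88101 CPM in LOS and 59188 to 77613 CPM in Control. The endothelial list was higher in 3 of 3 with a median of 0.03.

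After the 20 leading miRNAs, the other alike ones at an unadjusted p under 0.05 were miR-145, miR-486-3p, miR-421 and miR-200a-5p above zero and miR-769 and miR-668-3p below it, which were chosen for naming after their values were seen. miR-145 and miR-486-3p, like miR-200a-5p, are members of cell type lists (smooth muscle and red cell precursors). miR-145 averaged 481 ± 22.2 CPM in ART, 502.5 ± 48.0 CPM in LOS and 446 ± 31.5 CPM in Control. miR-486-3p was at 0.23 ± 0.10, while its main arm miR-486 was at -0.06 ± 0.05. The defining miRNAs of skeletal muscle miR-1 and miR-206 were not among the listed ones. The muscle list held miR-133a and miR-133b, both uneven among fetuses, with miR-133a at 169.6 CPM in ART 1 against 53.3 to 62.9 CPM in the other ART fetuses, and the list's median of 0.96 became 0.28 without ART 1. miR-499, a miRNA of heart and slow muscle that the list left out, lay the other way at -0.26 ± 0.17, with 5 of 8 libraries below every control, and it was added after its values were seen.

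**Figure D3:**
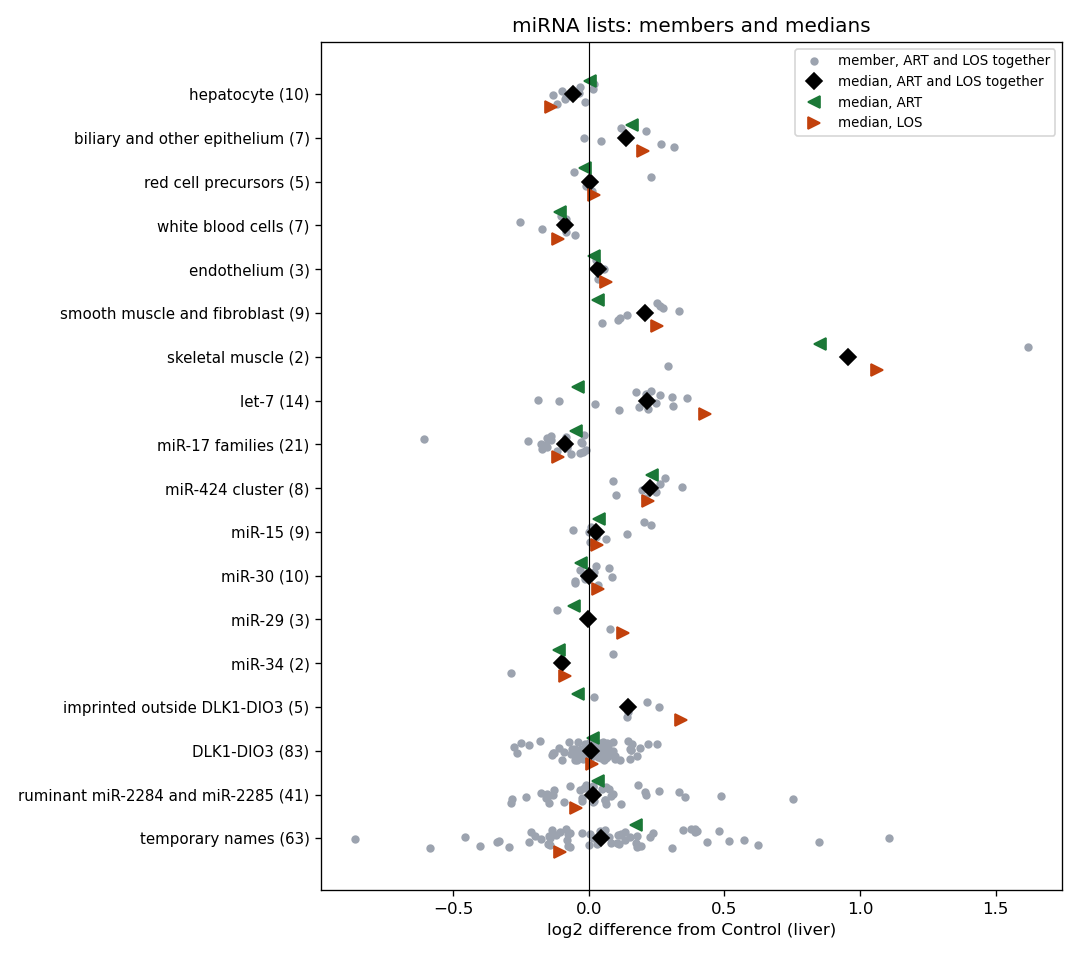
Log2 differences from Control (x axis) in liver for each miRNA list with more than 1 member (rows, number of members in brackets). Grey points are members in the pooled comparison, black diamonds their median, and triangles the medians of ART and LOS alone; the miR-424 cluster has medians of 0.23 in ART and 0.22 in LOS, while let-7 has -0.04 in ART and 0.43 in LOS.

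The miR-15, miR-30, miR-29 and miR-34 families, miR-210 and the imprinted miRNAs outside DLK1-DIO3 held 0 calls in edgeR or DESeq2. The miR-15 family had 8 of 9 members higher with a median of 0.03, and its main members miR-16b and miR-16a were at 0.01 ± 0.04 and 0.00 ± 0.03. miR-30 had 5 of 10 higher and a median of 0.00, and miR-29 had 1 of 3 higher and a median of 0.00. miR-34a, a target of p53, was at -0.29 ± 0.15 and miR-34c at 0.09 ± 0.09. miR-210, which hypoxia induces, was at -0.10 ± 0.07, -0.08 in ART and -0.13 in LOS. Imprinted miRNAs outside DLK1-DIO3 had 5 of 5 members higher, with medians of 0.15 pooled, -0.04 in ART and 0.34 in LOS. The pooled median was 0.06 without LOS 3, and miR-483, hosted by IGF2, was at 0.02 ± 0.10.

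The pooled comparison and the search for alike differences gave different miRNAs where LOS and ART were themselves unlike. Between LOS and ART, 15 of 563 miRNAs (2.66%) passed in edgeR, 6 higher and 9 lower in LOS, and 0 of these 15 differed alike from control, which the definition of alike, itself a limit on that difference, largely fixes. Of the 8 named miRNAs among the 15, 4 passed without LOS 1. The let-7 family, which rises as tissues differentiate, shows this. In the pooled comparison 7 of its 14 members were higher at an unadjusted p under 0.05, beside 4.97% of all miRNAs. Its medians were 0.22 pooled, -0.04 in ART and 0.43 in LOS, and 0 members differed alike, beside 27.5% of all miRNAs. let-7f stood at 7438, 8228, 8507 and 7663 CPM in ART, 11834, 9905, 14194 and 10928 CPM in LOS, and 7414, 7880.2, 8152, 7907 and 7702 CPM in Control. The pooled difference of 0.31 ± 0.07 thus averaged 0.03 in ART and 0.58 in LOS. ART 1 and ART 4 lay among the controls, ART 2 and ART 3 lay above the highest control, and every LOS fetus was higher still.

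miR-2408 was at 11.5, 12.9, 10.01 and 9.48 CPM in ART, 1.20, 1.31, 2.55 and 1.05 CPM in LOS, and 11.6, 12.3, 14.2, 2.08 and 12.1 CPM in Control. Its pooled difference of -1.36 ± 0.33 came from LOS, and Control 4 was as low as the LOS fetuses. miR-192, an abundant hepatocyte miRNA, had a pooled difference of 0.01 ± 0.05, with ART at 0.16 and LOS at -0.13. The LOS minus ART difference of miR-192 was -0.29, with a 95% interval from -0.43 to -0.15 (adjusted p 0.0260). miR-temp91-5p, among the abundant entries with temporary names, was at 0.78 in ART and -0.09 in LOS. miR-temp34-3p (0.44 in ART, -0.17 in LOS) and miR-temp82-3p (0.43 in ART, -0.17 in LOS) have near-identical counts, so they are uncertain as separate miRNAs.

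For the 20 leading alike miRNAs the LOS minus ART difference had an unadjusted p of 0.0877 or more and an adjusted p of 0.371 or more. The definition of alike limits that difference, so these p values are high by selection and are no test that the subgroups are equal. For the least certain members, miR-temp43-3p and miR-2285ag-3p, the intervals reached -0.93 and 1.16.

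**Figure D4:**
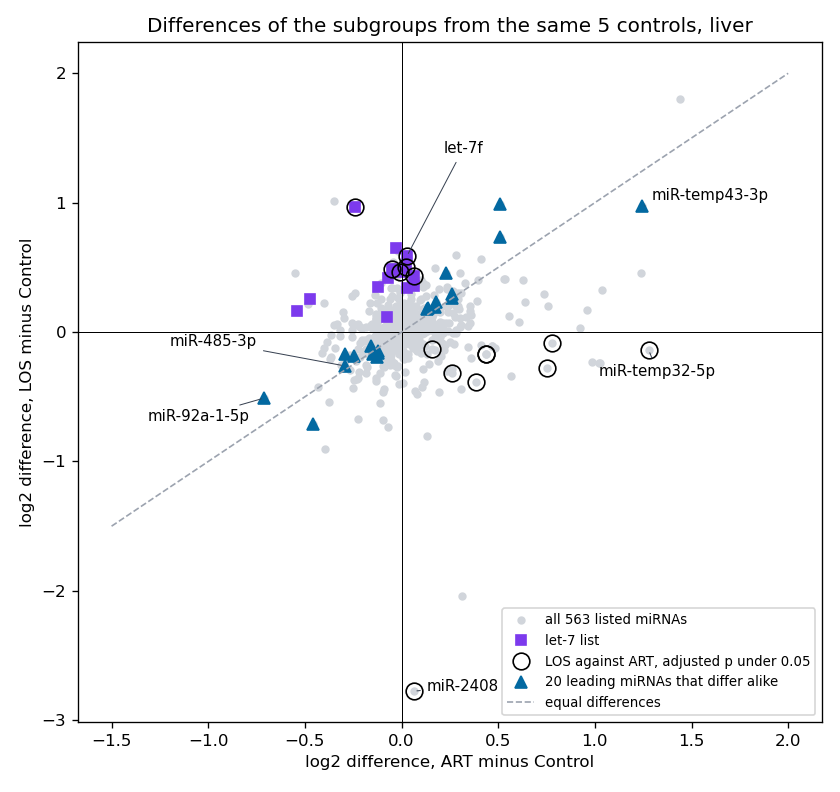
Log2 difference of ART (x axis) and of LOS (y axis) from the same 5 Control livers for 563 miRNAs (grey points), with the let-7 list as squares, the 20 leading alike miRNAs as triangles and the 15 miRNAs called between LOS and ART ringed. The dashed line marks equal differences; miR-485-3p, at -0.29 and -0.26, lies close to it, and let-7f, at 0.03 and 0.58, lies above it.

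The other tissues had LOS but no ART libraries, so there the leading miRNAs could be read only in LOS fetuses against controls. The labels use the same fetus numbers in each tissue, so these may be the same animals and not independent ones. In kidney (4 LOS, 4 Control) 0 of 436 miRNAs (0%) were called, in skeletal muscle (4 LOS, 4 Control) 0 of 439 (0%), and in tongue (7 LOS, 9 Control, with a term for sex) 0 of 460 (0%). At an unadjusted p under 0.05 these tissues had 33, 58 and 25 miRNAs in the same order. Of the 20 leading liver miRNAs, 14 were listed in each tissue, and 2 in kidney, 1 in muscle and 2 in tongue had an unadjusted p under 0.05.

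miR-485-3p was at -0.32 ± 0.12 in LOS kidney (41.6 ± 4.81 CPM in LOS, 51.8 ± 5.23 CPM in Control; adjusted p 0.456 or more for every leading miRNA there), at 0.25 ± 0.13 in LOS muscle and at 0.01 ± 0.07 in LOS tongue. In liver its LOS difference was -0.26 ± 0.08. miR-345-5p, higher in both liver subgroups, was at -0.31 ± 0.11 in LOS kidney. miR-197, lower in both liver subgroups, was at -0.21 ± 0.11 in LOS kidney and -0.15 ± 0.07 in LOS tongue but 0.23 ± 0.09 in LOS muscle. miR-2285q was at 0.35 ± 0.12 in LOS tongue and 0.30 ± 0.15 in LOS muscle (edgeR adjusted p 0.843 and 0.405), but 0.01 ± 0.11 in LOS kidney. Differences between tissues were not tested.

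**Figure D5:**
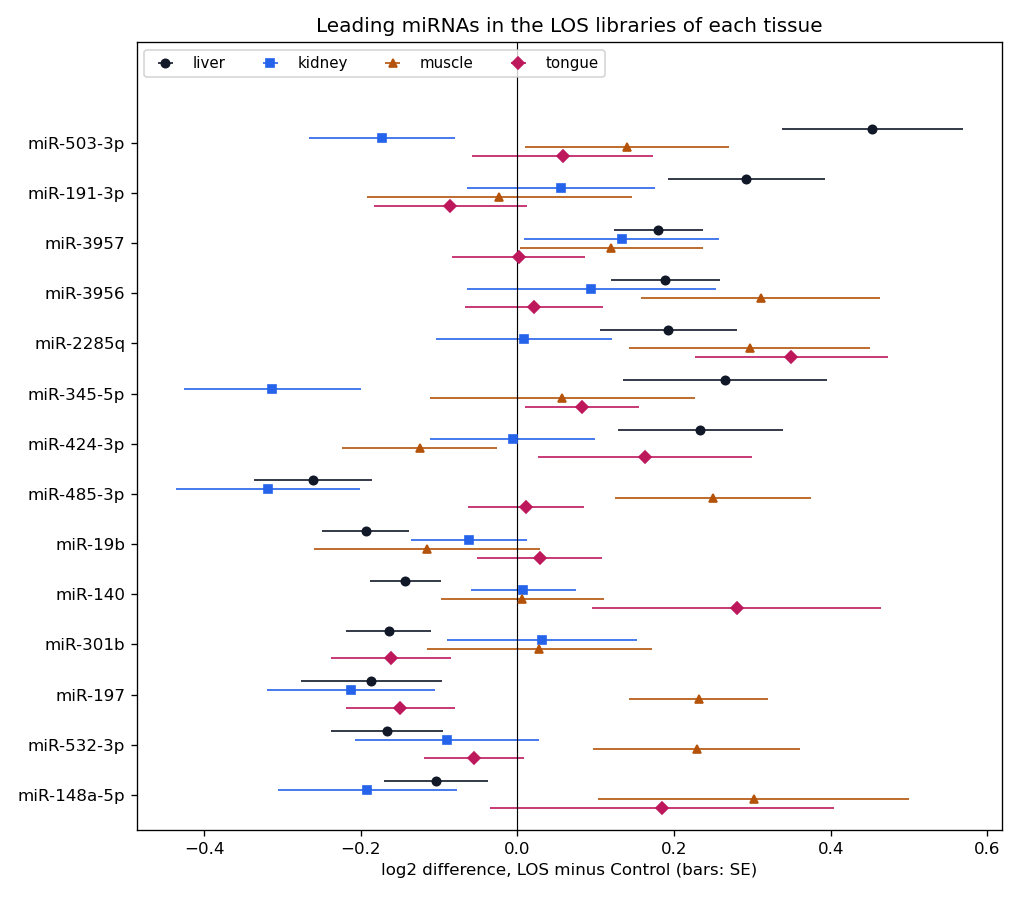
Log2 difference of LOS from Control (x axis; bars are the SE) for the 14 leading liver miRNAs that are listed in kidney, skeletal muscle and tongue (rows), by tissue. miR-485-3p lies at -0.26 in liver, -0.32 in kidney, 0.25 in muscle and 0.01 in tongue.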

How the data were processed

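Small RNAs of the liver of 4 ART, 4 LOS and 5 Control fetuses were measured. The authors deposited unnormalized whole-number read counts per mature miRNA. The build UMD3.1 and Bowtie are named in the submitters' processing notes. How reads were counted, against which miRNA annotation and with what filter is not given in the sources used here. Totals are of listed miRNAs (lowest count 3), not full depths. Names and coordinates beyond the table's own were not used, and sequences are not shown.

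From these counts edgeR 4.0.16 (R 4.3.3) gave TMM factors (0.969 to 1.03) and quasi-likelihood tests from 1 model of 3 group means, with the contrast of the mean of ART and LOS against Control. filterByExpr kept all 563 miRNAs, and p was adjusted by Benjamini-Hochberg over them. DESeq2 1.42.0, limma-voom (limma 3.58.1), other scalings and filters, a 2-group model and each fetus left out were alternatives. Fetuses are separate by label, but p measures only the spread between these samples. No pair of libraries within a group came closer than a chi-square per degree of freedom of 23.9, so none was taken as a duplicate. Replicate numbers were not used as a pairing in the main model.

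The members, lists and tests were chosen with earlier results of these data known. Named miRNAs were calls (at most 30), the 10 alike higher and 10 alike lower with the lowest p, the 5 of opposite signs with the lowest LOS minus ART p, the 2 most abundant members of each list and the 5 most abundant miRNAs. Since no call differed alike, other tissues were read for the 20 leading miRNAs, a choice made after seeing the data. Entries within 5% of each other in every library count as near-identical.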

Additional observations from a re-analysis of the deposited data

Results flagged for a closer look

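A fetus was taken to stand apart where its gap to the nearest value of its group, divided by the range of the group, exceeded the 95% critical value of Dixon's test. This was so in 10 of 186 groups of 4 or 5 fetuses, which were the 3 groups for each named miRNA and for the first principal component, and chance flags about 1 in 20 groups. Among leading miRNAs these were miR-485-3p in ART 3 (378 CPM, the others 327 to 334.8), miR-503-3p in Control 2 (15.1 CPM, the others 12.1 to 12.8), miR-2285q in LOS 2 (49.1 CPM, the others 42.7 to 43.6) and miR-2285ag-3p in ART 2 (5.74 CPM, the others 2.86 to 3.33). miR-2408 had a high fetus in LOS 3 (2.55 CPM, the others 1.05 to 1.31) and a low one in Control 4 (2.08 CPM, the others 11.6 to 14.2). ART 1 was high in miR-133a (169.6 CPM, the others 53.3 to 62.9) and in miR-133b (28.7 CPM, the others 1.67 to 2.56), which are miRNAs of skeletal and heart muscle. Control 1 was low in miR-411a (85763 CPM, the others 90751 to 91653), and ART 3 was high in miR-temp63-3p (31416 CPM, the others 27804 to 28028).

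The subgroup effects differed, by the test of LOS against ART adjusted over all miRNAs in edgeR, for 8 named miRNAs. LOS minus ART was 0.54 for let-7a-5p, 0.56 for let-7f, 0.48 for miR-98, -2.84 for miR-2408, -0.60 for miR-temp82-3p, -0.61 for miR-temp34-3p, -0.29 for miR-192 and -0.87 for miR-temp91-5p.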

How the results depend on the processing

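The pooled comparison called 0 miRNAs with limma-voom, RLE scaling, no scaling factors, a mean CPM of at least 10, no filter, the 3 most abundant miRNAs left out and a 2-group model (43 at an unadjusted p under 0.05 there). DESeq2 called 6 (let-7f, let-7g, miR-98 and miR-temp43-3p higher, miR-2408 and miR-485-3p lower), of which 2 differed alike. Leaving out 1 fetus gave 0 to 5 calls: 5 let-7 members without LOS 2, miR-2408 without Control 4, and 0 that differed alike. Named miRNAs called between LOS and ART ranged from 4 (without LOS 1) to 8. For the 20 leading miRNAs no alternative changed a sign, and those that passed did so in DESeq2 only. Non-overlapping miRNAs numbered 1 under RLE scaling. At an unadjusted p under 0.05, 26 miRNAs were alike in the main fit and 17 without ART 3. With all fetuses kept and no limit on the ratio, 44 had the same sign in both subgroups. List medians near zero (miR-30, miR-29, red cell, miR-15, DLK1-DIO3, ruminant) changed sign in some alternatives. The causes were not tested.

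With the replicate number as a block (numbers 1 to 4, without Control 5) the pooled comparison had 0 calls and 56 miRNAs at an unadjusted p under 0.05. Correlations of same-numbered deviations ran from -0.37 to 0.215, with 3 of 12 above 0.1. Differently numbered pairs were not set beside them, so these values cannot tell whether the numbers are a pairing. Precision was lower for the miRNAs under 10 CPM, whose median interval reaches 0.39, and the part of depth in it was not tested.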
